A study of Mus musculus with 12 samples.

Results

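In inflammatory mouse macrophages, 356 of the 17621 YTHDF2 peaks whose summit lay in an annotated transcript feature had that summit in a 5′ untranslated region (5′ UTR). They made up 2.02% of the peaks (95% Wilson interval 1.82% to 2.24%) and lay in 338 genes. A peak was counted when the base of highest signal fell inside a 5′ UTR piece named beside it in the deposited list, and in no 3′ UTR or coding piece of any transcript named there. By contrast, 6902 summits (39.2%) lay in 3′ UTRs, 6288 (35.7%) in coding sequence and 4075 (23.1%) in introns. In all, 387 summits lay in some 5′ UTR piece, and 24 of them were counted as coding and 7 as 3′ UTR because another transcript placed them there. Wilson intervals here cover counting error only, and peaks of 1 list are not independent samples.

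The cells were bone marrow-derived macrophages, cultured with 20 ng/ml M-CSF for 7 days and then made M1-type with 100 ng/ml LPS and 20 ng/ml IFN-γ for 24 hours. Mice were Ythdf2 cKO, a conditional knockout for which the labels name no Cre driver, and WT, on the C57BL/6 strain per the labels. The series has 12 libraries in 6 groups of 2: m6A immunoprecipitate and input from cKO, the same from WT, and YTHDF2 immunoprecipitate (5 µg of antibody) and input from WT alone. The labels do not say whether replicates were separate mice or cultures, so p-values measure only the spread between these samples, which may be technical. The YTHDF2 peaks came as 1 list for the WT group with no value per library, so the fold enrichments carry no replicate error and the depth is unknown. Every peak in that list, the 356 among them, bears a name of the form m6a_peak, although the list was deposited as the YTHDF2 list. Whether it holds regions called on m6A libraries was not tested.

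N6-methyladenosine, m6A, is a methyl mark on adenosines inside mRNA. YTHDF2 binds marked mRNA through its YTH domain and recruits the CCR4-NOT deadenylase, which shortens the poly(A) tail and starts decay. Most m6A lies near stop codons and in 3′ UTRs, but some lies in 5′ UTRs, the stretch that the small ribosomal subunit scans on its way to the start codon. Upstream reading frames, iron-responsive elements and other structures in that stretch set how often a transcript is translated. In stressed cells, m6A in the 5′ UTR has been linked to translation that does not need the cap, and YTHDF2 has been reported to protect such marks in the nucleus.

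Sequence could be read for summits that fell within the RefSeq promoter windows (GRCm38.p6, the coordinates of mm10), which run from 250 bases before to 50 bases after an annotated start. That was so for 20 of the 356 summits, and these were therefore summits at or just upstream of a RefSeq start. The strongest of them, and others picked to show GGAC or ATG near a summit, are given as 30 bases around the summit on the transcript strand. GGAC is the core of the sequence at which m6A is most often found, and capitals mark GGAC and ATG, the start codon triplet.
Sppl3 (chr5:115011422-115011451, plus strand): gcccggggcccgcgcccgctccggggccca
Slc37a4 (chr9:44398267-44398296, plus strand): GGACactgggttccctggttgctgccccag
Bola2 (chr7:126695793-126695822, plus strand): gcggaaccgcaGGACtggctgccctccagt
Nin (chr12:70102836-70102865, minus strand): gtcccacacaggtgagcgctgtgggctATG
Ube2r2 (chr4:41135935-41135964, plus strand): tccggccccgccaggcgtgtgaGGACagac
H3f3b (chr11:116024568-116024597, minus strand): tcgaaaaagtcgttggtgtATGcaaatcag

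The window of Sppl3, an intramembrane protease of the Golgi, was almost entirely G and C (93.3%) and held no GGAC. Slc37a4, the glucose-6-phosphate transporter of the endoplasmic reticulum, Bola2, a partner of monothiol glutaredoxins, and Ube2r2, a ubiquitin-conjugating enzyme, held GGAC on the transcript strand. The windows ranged from 40.0% GC at H3f3b, which encodes a replacement histone, to 96.7% at Bahd1, a heterochromatin factor. Within 50 bases of the summit, GGAC was present in 6 of the 13 summits whose whole window was available (46.2%, interval 23.2% to 70.9%), and GGACT, which contains GGAC, in 1. Within 25 bases the share was 5 of 17 (29.4%), and within 100 bases 4 of 8 (50.0%). Windows of the same length, 101 bases, upstream of all 21262 starts of protein-coding genes held GGAC in 32.1%, within that interval, and GGACT in 9.56%. ATG lay within 50 bases of 2 of the 13 summits, against 60.5% of those upstream windows. The share with GGAC on either strand was 61.5% of these 13 summits. A match of these letters describes the window and does not locate a methylated base.

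A second set of sequences is of members whose 5′ UTR piece began within 10 bases of a RefSeq start. It shows the first bases from that annotated start, near which the distances of their summits begin. Where transcription starts in these cells was not tested. The 3 strongest such members and 2 with ATG in view are given, each as the first 30 bases from the annotated start, and capitals again mark GGAC and ATG.
Fbxl19 (chr7:127746775-127746804, plus strand): gggtggggagctgagactcatacccgGGAC
Fip1l1 (chr5:74535491-74535520, plus strand): gcagacggatcggtcgctgactcttcaggg
Sfn (chr4:133602139-133602168, minus strand): agcagctcggtggctgaagcctggaagatc
Btg1 (chr10:96617001-96617030, plus strand): agctcttcgcccctcggagctggaaATGca
Ftl1 (chr7:45459857-45459886, minus strand): ccggagggtcaacATGctataaaaggagcg

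The summits of these 5 members lay 166, 116, 236, 216 and 194 bases past the 5′ end of the piece, in that order, so none fell in the bases shown. Across 111 RefSeq starts at which a member's piece began, the 300-base window had a median GC content of 66.3% and 27 CG pairs, against 56.3% and 13 over all 21262 protein-coding starts. Starts of other genes with a YTHDF2 peak had 61.7% and 22. GGAC occurred in 70.3% of the member windows, against 71.8% of those of other peak genes and 68.0% of all protein-coding starts. In the first 50 transcribed bases GGAC occurred at 18.9% of member starts, against 20.4% at other peak genes and 20.0% at all protein-coding starts. No test was made of these differences in base composition.

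Within their 5′ UTR pieces the summits were spread widely. The pieces had a median length of 362.5 bases (quartiles 226 and 538.75, range 17 to 1725), and the summit lay a median of 196.5 bases from the 5′ end and 141 bases from the 3′ end. A piece is 1 exon's share of a 5′ UTR, so this distance is not always that from the cap. For 281 peaks in genes with a RefSeq start, the nearest start lay a median of 309 genomic bases upstream. Of these, 12 (4.27%) lay within the first 100 bases and 109 (38.8%) between 100 and 300 bases. A further 66 (23.5%) lay between 300 and 1000 bases, 78 (27.8%) at 1000 or more in either direction, and 16 (5.69%) upstream by less than 1000. Thus more summits lay between 100 and 300 bases past the start than in the first 100. The narrowest 5′ UTR peak was 200 bp wide, and the part of this minimum width in where summits can lie was not tested. The piece itself began at a RefSeq start for 113 peaks (40.2%), and these had a median fold enrichment of 2.78, against 2.93 for the other 168.

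**Figure D1:**
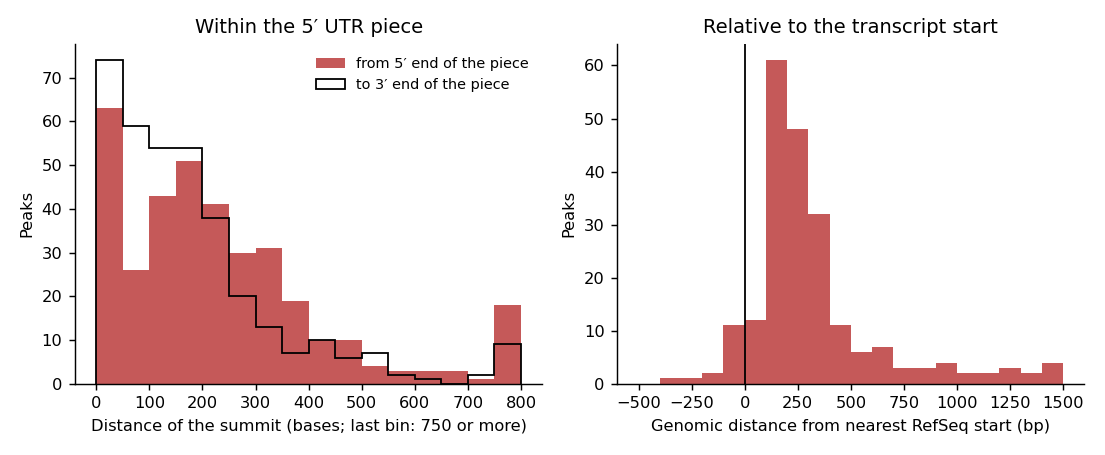
Position of the 356 summits. Left, number of peaks by distance in bases of the summit from the 5′ end (filled) and to the 3′ end (line) of the 5′ UTR piece; right, number of peaks by genomic distance in bp from the nearest RefSeq start, for those between -500 and 1500 bp, with the start at 0 (215 of 281 peaks). The right panel peaks between 100 and 300 bp past the start, where 109 of 281 summits lie, and 12 lie in the first 100.

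The peaks often ran out of the 5′ UTR. In 159 of 356 (44.7%) the peak reached coding sequence of a named transcript and in 115 (32.3%) an intron, 70 of these reaching both, while 152 (42.7%) reached neither. The peak began upstream of the piece in 181 (50.8%) and lay wholly within it in 114 (32.0%). Summits within 10 bases of an edge of the piece numbered 42 (11.8%), and 12 summits (3.37%) also lay in a feature of another gene. Supt6h and Sdf2 shared 1 such region, as did Ddi2 and Rsc1a1, and the Csrnp1 peak lay in an intron of Cx3cr1. In these the list cannot say which gene's RNA was recovered.

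The fold enrichment at the summit, the authors' own value for each peak, had a median of 2.81 in 5′ UTR peaks (interval of the median 2.68 to 2.91, quartiles 2.33 and 3.52, range 1.48 to 8.19). Coding peaks had a median of 2.94, 3′ UTR peaks 2.91 and intron peaks 3.36. In the 5′ UTR class 15 peaks reached 5-fold, 149 reached 3-fold and 40 were under 2-fold. The upper 25% of the whole list, at 3.78 or more, held 60 of the 5′ UTR peaks (16.9%), against 21.2% of 3′ UTR, 22.3% of coding and 36.4% of intron peaks. The −log10 q had a median of 12.2, against 12.4, 12.9 and 15.2 in those classes. A 5′ UTR peak was a median of 331.5 bp wide, against 498 bp in 3′ UTRs, 345 bp in coding sequence and 312 bp in introns. The interval of the 5′ UTR median fold (2.682 to 2.906) overlapped that of the 3′ UTR median (2.883 to 2.935). It ended just below that of the coding median (2.908 to 2.964) and well below that of the intron median (3.306 to 3.399).

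**Figure D2:**
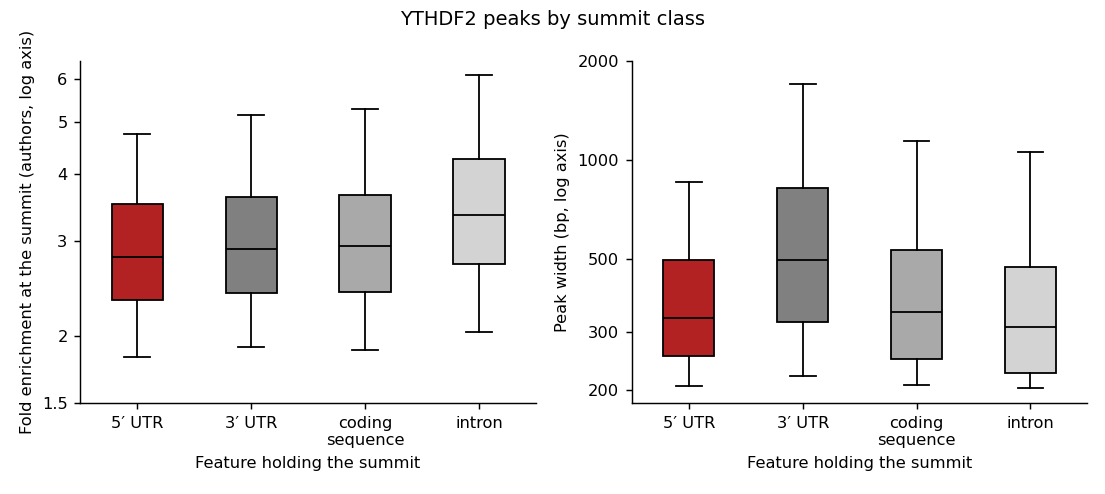
Fold enrichment at the summit (left) and peak width in bp (right) of YTHDF2 peaks by the feature that holds the summit, both on log axes. Boxes span the quartiles with the median as a line, and whiskers reach the 5th and 95th percentiles. The 5′ UTR box has its median at 2.81, below the 3.36 of intron peaks, and a median width of 331.5 bp, below the 498 bp of 3′ UTR peaks.

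The strongest 5′ UTR peak was that of Tnk2, a non-receptor tyrosine kinase that binds active Cdc42, at 8.19-fold (chr16:32644740-32645050). Its strongest coding peak was higher, at 11.2. Fbxl19, a substrate adaptor of a ubiquitin ligase with a CpG-binding domain, and Fxr2, an RNA-binding relative of the fragile X protein, both had 7.25 (chr7:127746705-127747109 and chr11:69633071-69633331). In both, the 5′ UTR peak exceeded the strongest coding peak, at 5.78 and 5.23. Gm9845, a predicted gene with no other YTHDF2 peak, had 7.17 (chr3:39358906-39359160). Pptc7, a mitochondrial phosphatase, had 7.15 (chr5:122284467-122284667), against 4.01 for its strongest 3′ UTR peak. Each of these 5 thus had its peak far into the upper tail, although only Gm9845 lacked peaks elsewhere.

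Fip1l1, a subunit of the machinery that cleaves and polyadenylates mRNA ends, followed at 6.34 (chr5:74535451-74535707), against 2.45 for its coding peak. Sppl3 had 5.95 (chr5:115011288-115011581), Sfn, an adaptor that binds phosphoserine motifs, had 5.89 (chr4:133601441-133602174), and Sh3bp5l, a relative of a guanine nucleotide exchange factor for Rab11, had 5.63 (chr11:58331179-58331674). Furin, the protease that cleaves many proproteins in the secretory pathway, had 5.54 (chr7:80402533-80402823) and a second 5′ UTR peak at 3.65 (chr7:80398723-80399092). Both Furin peaks exceeded its coding peak (2.08) and its 3′ UTR peak (2.58). None of these 10 strongest peaks overlapped an m6A peak.

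Among these called peaks, fold enrichment was lower in more abundant transcripts. A scarce transcript may need a higher fold for its peak to be called, and the part of that selection was not tested. Across the 355 members with a mean normalized count in the authors' deposited table, fold enrichment and that count had a Spearman correlation of -0.41, as a description over peaks that share their libraries and their input. At the low end lay Pfkfb3, the glycolytic activator whose product stimulates phosphofructokinase, at 1.48 with a count of 23330 in the authors' deposited table, and Itgb1, an integrin chain, at 1.62 with 13140. Tnk2 had a count of 150 and Gm9845 of 57.0 in the authors' deposited table. Width did not follow the count (Spearman correlation -0.09), and fold enrichment and −log10 q had one of 0.62 over the 356 peaks.

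Several genes held more than 1 of these peaks. BC005537 had 3 in a single piece of 1725 bases (folds 1.64, 2.01 and 2.16), and Fam193b had 3 as well (2.30, 2.59 and 2.86). Another 14 genes had 2, among them Hdac5, a histone deacetylase (3.46 and 3.24), and Nod1, a sensor of bacterial peptidoglycan (4.07 and 2.94). The widest 5′ UTR peaks were those of Mesdc1 (2593 bp), Itpripl2 (2400 bp), Trim8, a ubiquitin ligase (1419 bp), Snx33, a sorting nexin (1309 bp), and Brd2, a reader of acetylated histones (1289 bp). All 5 overlapped an m6A peak by at least 1 bp, against 21.9% of all 356 members. A wider peak meets such a rule more easily, and the part of width was not tested.

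Most host genes also had YTHDF2 peaks elsewhere. Of the 338, 231 (68.3%) also had a 3′ UTR peak, 210 (62.1%) a coding peak and 144 (42.6%) an intron peak. The 7051 genes with any YTHDF2 peak include the hosts. Of those 7051, 4564 had a 3′ UTR peak, 3850 a coding peak and 2131 an intron peak. Whether hosts differ from them, given their abundance, was not tested. The 5′ UTR held the only YTHDF2 peaks of 15 of the 338 hosts (4.44%). Among these were Yy1, a zinc finger transcription factor, Tgfb1, the cytokine TGF-β1, Xpo1, the main exporter of nuclear proteins, Sirt6, a deacetylase of chromatin, and Ext1, a polymerase of heparan sulfate. Of 323 host genes with peaks of another class as well, the 5′ UTR peak was the strongest in 88 (27.2%). It exceeded the strongest 3′ UTR peak in 104 of 231 genes (45.0%, median ratio 0.944) and the strongest coding peak in 82 of 210 (39.0%, median ratio 0.906). Where the gene had a single 3′ UTR peak, so that no choice of the highest was made on that side, the 5′ UTR peak was higher in 67 of 130 (51.5%, median ratio 1.02).

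The design also maps m6A in WT cells, which asks how often a 5′ UTR site of YTHDF2 coincides with the mark it reads. An m6A peak overlapped 78 of the 356 peaks by at least 1 bp (21.9%, interval 17.9% to 26.5%). The same held for 23.2% of 3′ UTR, 30.4% of coding and 11.3% of intron peaks, so the 5′ UTR interval included the 3′ UTR share and lay below the coding and above the intron share. With m6A peaks of at most 1000 bp alone, an alternative chosen after seeing the data, the 5′ UTR share was 19.1% (interval 15.4% to 23.5%). The 3′ UTR share was then 19.6%, the coding share 20.6% and the intron share 6.28%, so that the coding share fell inside the 5′ UTR interval. With the summit inside the m6A peak the 5′ UTR share was 12.6%, against 11.3%, 19.8% and 6.72% in those classes. Among the 78, the m6A peak had a median genomic span of 371.5 bp, and 10 spans exceeded 1000 bp. The 5′ UTR peaks with m6A were wider (median 463 bp, against 319 bp without) and lower (median fold 2.54, against 2.89 without). A wider peak has more bases at which an overlap of 1 bp can fall, and the part of width was not tested.

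**Figure D3:**
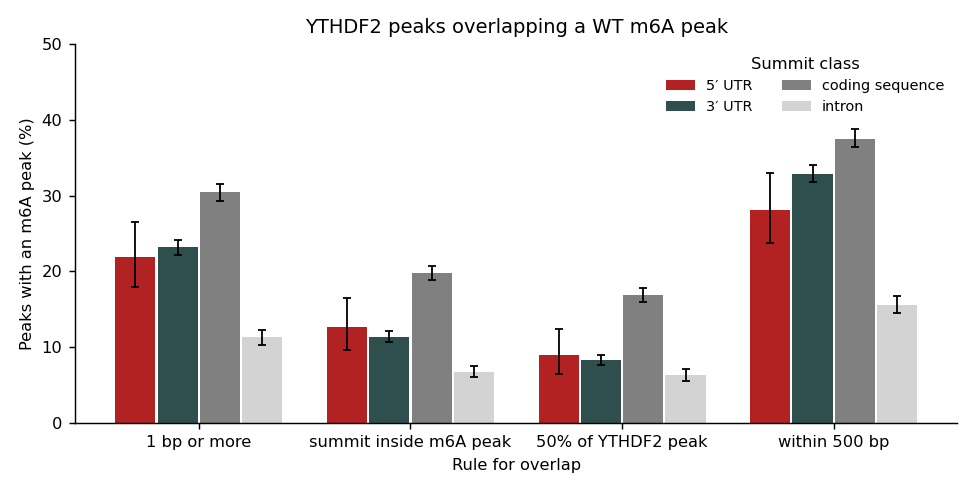
Percentage of YTHDF2 peaks in each summit class that have a WT m6A peak under 4 rules for overlap, with 95% Wilson intervals as error bars. The 5′ UTR bars (21.9% at 1 bp or more) lie near the 3′ UTR bars (23.2%) and between the coding bars (30.4%) and the intron bars (11.3%).

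Among 5′ UTR peaks that overlapped m6A, the strongest was that of Usp19, a deubiquitinase of the endoplasmic reticulum, at 4.65 (chr9:108492400-108492674), with m6A at chr9:108492577-108493248. Its 3′ part held the m6A peak, which continued into the gene. Ndst1, which sulfates heparan sulfate, had 4.14, and Ppp1r16a, a targeting subunit of protein phosphatase 1, had 4.05. Trim41, a ubiquitin ligase, had 3.86 (chr11:48816572-48816863), inside an m6A peak at chr11:48816493-48816892 and against 2.92 for its 3′ UTR peak. Fam20b, a kinase of proteoglycan synthesis, had 3.71, Msl2, the ubiquitin ligase of a histone acetyltransferase complex, had 3.70, and Tesk1, a kinase of cofilin, had 3.60. Josd1, a deubiquitinase, had 3.58, below a second 5′ UTR peak of that gene without m6A at 4.89. Mettl6, a methyltransferase of serine tRNA, had 3.57. Pafah1b1, a regulator of the dynein motor, also had 3.57, with the highest −log10 q of all 356 peaks, 39.9 (chr11:74724100-74724361, m6A at chr11:74724301-74724425).

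At the level of the gene, 235 of 338 hosts (69.5%) had an m6A peak somewhere, against 3826 of the 7051 genes with any YTHDF2 peak (54.3%), a set that includes the hosts. Thus 171 of the 356 peaks (48.0%) lay in a gene with m6A but away from it, and 107 (30.1%) in a gene with no m6A peak. Host transcripts were abundant: their median mean normalized count in the authors' deposited table was 2018, against 1180 for other genes with a YTHDF2 peak. The part of abundance in these shares was not tested. In hosts above the median count of tested genes, 23.6% of the 5′ UTR peaks overlapped m6A.

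The host genes were diverse: 267 of the 338 (79.0%) belonged to none of 25 gene families taken by symbol. Of all 7051 genes with a YTHDF2 peak, 4.79% had a 5′ UTR peak, and each family's share is given beside that value with no test. In the MAP kinase cascade, which carries signals from Toll-like receptors to transcription, the share was 8 of 47 (17.0%, interval 8.89% to 30.1%). Its members were Map4k4 (4.84), Map3k10 (4.35), the stress kinase Mapk14 (3.40), Map2k1 (3.12), the phosphatase Dusp1 that turns off MAP kinases (2.52), Dusp16 (2.37), Mapk6 (2.36) and Mapkapk2, which stabilises cytokine mRNAs downstream of p38 (2.32). Only Dusp16 and Mapk6 overlapped m6A. For Mapk14 the 5′ UTR peak exceeded the strongest 3′ UTR peak (2.32), and for Dusp16 it was lower (2.37, against 5.51).

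Ubiquitin ligases, conjugating enzymes and deubiquitinases had 16 of 185 genes (8.65%), with folds from 2.19 at the lowest to 7.25 at Fbxl19. They included Usp19, Trim41, Trim8, Ube2r2 and Ube4b. The pattern for cell cycle genes had 7 of 65, but 3 of them (the Cdc42 effectors Cdc42bpb, Cdc42se1 and Cdc42se2) were matched by name alone, which leaves Ccni, Cdk13, Cdk18 and Cdk6. Chromatin modifiers had 7 of 89 (7.87%), with Hdac4 at 3.88 and the deacetylases Hdac5 and Sirt6 among them. Along the chromosome, the Hdac4 peak lay between 3′ UTR peaks of the same gene (2.52 and 3.74). Whether it lies in the leader of the main Hdac4 transcript was not tested. Solute carriers had 9 of 127 (7.09%), from 1.92 to 5.28 at Slc37a4.

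Zinc finger proteins had 6 of 164 (3.66%), near the share of all genes; 1 of them, Zfp36l2, binds AU-rich RNA. The pattern for Rab and Arf genes had 4 of 91 (4.40%), which were Arl4c, Rab10, Rab5c and, matched by name alone, Arl6ip4. No gene matched by the symbol patterns of 10 families had a 5′ UTR peak. These 10 were the cytosolic and mitochondrial ribosomal proteins, proteasome, respiratory chain, interferon-induced genes, NF-kB and TNF signalling, the m6A machinery, lysosome, chemokines and cytokines, and MHC genes. Each had between 13 and 38 genes with a YTHDF2 peak, and the upper limits of their intervals, 9.18% to 22.8%, all lay above the 4.79% of all genes. The patterns did not catch every related gene, so these absences cover only the genes matched. The cytokine pattern did not match Tgfb1, and that of the m6A machinery did not match Fxr2, both hosts by their own 5′ UTR peaks. Of 14 interferon regulatory factors and STATs with a YTHDF2 peak, 1 had one in the 5′ UTR, Irf7, which drives interferon genes (1.97). Further families had 1 or 2 such genes, among them the initiation factors Eif5 and Eif6, the helicases Ddx17 and Ddx39b, and the splicing factors Rbm6 and Srsf5.

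Some transcripts are known for translational control through the 5′ UTR, by upstream reading frames, iron-responsive elements or internal entry of ribosomes. A list of 24 such genes was drawn up after the member names were seen, so its counts are a description only. Of the 24, 23 had a YTHDF2 peak of any class and 11 a 5′ UTR peak. Pdgfb, a growth factor with a long structured leader, had 4.37. Atf5, a stress transcription factor whose reading frame is set by upstream frames, had 3.62. Hspa5, the chaperone of the endoplasmic reticulum, had 2.65. Ppp1r15b, which directs a phosphatase to eIF2α, had 2.54, and Azin1, an inhibitor of antizyme, 2.48. Vegfa had 2.35, Ftl1, the ferritin light chain with an iron-responsive element, 2.29, Pabpc1, which represses itself through its leader, 1.98, Eif5 1.81 and Tgfb1 1.77. Atf4, Ddit3, Ppp1r15a, Fth1 and Odc1 had coding peaks and none in the 5′ UTR.

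Input RNA was compared between the genotypes in the authors' deposited table, which holds no value per library. The table does not state which genotype is on top, so a positive value is called the side of Ythdf2, because Ythdf2 itself was positive there. In the authors' deposited table Ythdf2, the targeted gene, stood at 1.10 ± 0.16 on the log2 scale (SE, adjusted p 2.1e-09), and it had no YTHDF2 peak. Fewer cells of a type and less RNA per cell cannot be told apart in bulk RNA. In the authors' deposited table, 8 of 334 tested hosts (2.40%) had an adjusted p under 0.05, and all 8 were positive. Over all 10778 tested genes 2.32% passed, 1.76% positive and 0.557% negative, so the hosts' share was near that of all tested genes. Hosts were abundant, however, and above the median count of tested genes 2.58% of hosts were called in the authors' deposited table. There 3.19% of other genes with a YTHDF2 peak and 3.45% of all genes were called. At an unadjusted p under 0.05 there were 33 hosts (9.88%), against 9.99% of all tested genes.

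Plcxd2, which has a phospholipase C catalytic domain, had the largest value among called hosts in the authors' deposited table, a log2 fold change of 1.14 ± 0.18 (SE, adjusted p 6.6e-07). Its 5′ UTR peak had 3.41 (chr16:46009802-46010356). Adra1a, an adrenergic receptor, followed in the authors' deposited table at 0.87 ± 0.18 (adjusted p 0.00044), and its 5′ UTR peak of 2.36 (chr14:66637169-66637464) overlapped m6A at chr14:66637128-66637302. Myo10, a motor of filopodia, and Fam20c, a kinase of secreted proteins, had 0.59 ± 0.16 and 0.58 ± 0.15 in the authors' deposited table (adjusted p 0.013 and 0.0065). Zfp36l2, which recruits deadenylases to AU-rich RNA, stood in the authors' deposited table at 0.55 ± 0.14 (adjusted p 0.0091). Its 5′ UTR peak had 3.86, against 4.01 for its strongest 3′ UTR peak.

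Sema4d, a semaphorin of immune cells, stood in the authors' deposited table at 0.52 ± 0.14 (adjusted p 0.015), with a 5′ UTR peak of 1.75. In the authors' deposited table, Trio, an exchange factor for Rac, had 0.44 ± 0.13 (adjusted p 0.046), and Cflar, an inhibitor of caspase 8, had 0.38 ± 0.11 (adjusted p 0.037). With p-values from the authors' deposited table adjusted anew over every gene that has one, Trio (adjusted p 0.11) and Cflar (0.092) no longer passed. The 5′ UTR peak of Cflar (2.11, chr1:58726132-58726403) overlapped the 3′ end of a long m6A interval, chr1:58722975-58726384. All 8 genes also had YTHDF2 peaks outside the 5′ UTR.

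**Figure D4:**
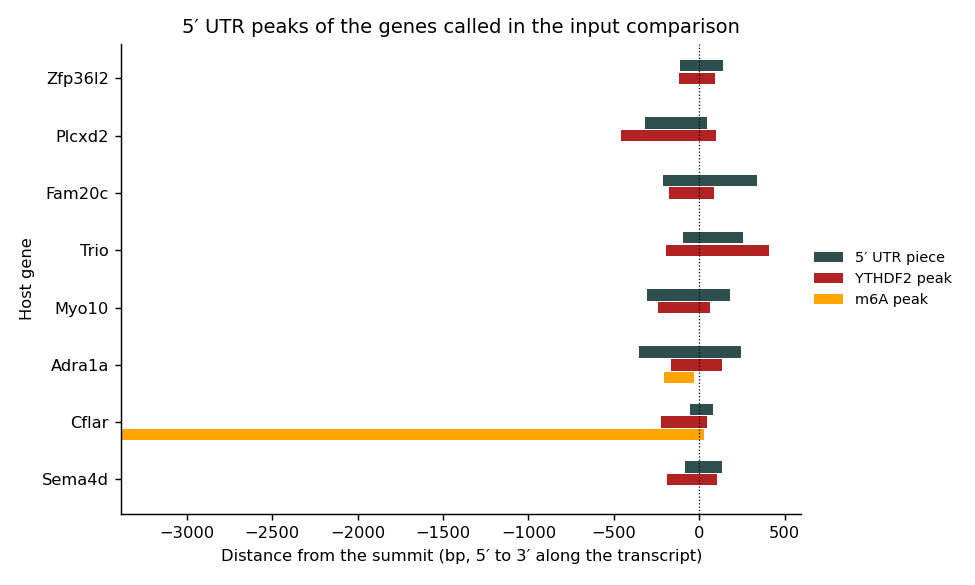
The 5′ UTR piece, the YTHDF2 peak and any overlapping m6A peak of the 8 called hosts, drawn to scale as distance in bp from the YTHDF2 summit, 5′ to 3′ along the transcript, and ordered from the highest fold at the top. Adra1a and Cflar have an m6A peak, and that of Cflar runs far upstream.

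Across all tested hosts, called or not, the sign was more often on the side of Ythdf2. Of 334 tested hosts, 218 had a positive log2 fold change (65.3%, interval 60.0% to 70.2%) in the authors' deposited table, against 51.9% of 6450 other genes with a YTHDF2 peak and 48.7% of all tested genes. The shift was small: the median was 0.043 (quartiles -0.046 and 0.146) in hosts, against -0.005 (quartiles -0.138 and 0.12) over all tested genes, in the authors' deposited table. The median standard error of a single host was 0.134 in the authors' deposited table, larger than that shift. That value describes a single gene and does not give the error of a median over hosts. The sign also moved with abundance, and 271 hosts (81.1%) had a mean count at or above the median of tested genes. Above that median, 67.5% of hosts were positive, against 56.1% of other peak genes and 54.7% of all genes in the authors' deposited table. In the upper 25% the shares were 71.0%, 61.6% and 60.4% in the authors' deposited table. Hosts whose 5′ UTR peak overlapped m6A and those where it did not had medians of 0.042 and 0.043 in the authors' deposited table, and 2 of the 75 tested hosts with such a peak were called.

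**Figure D5:**
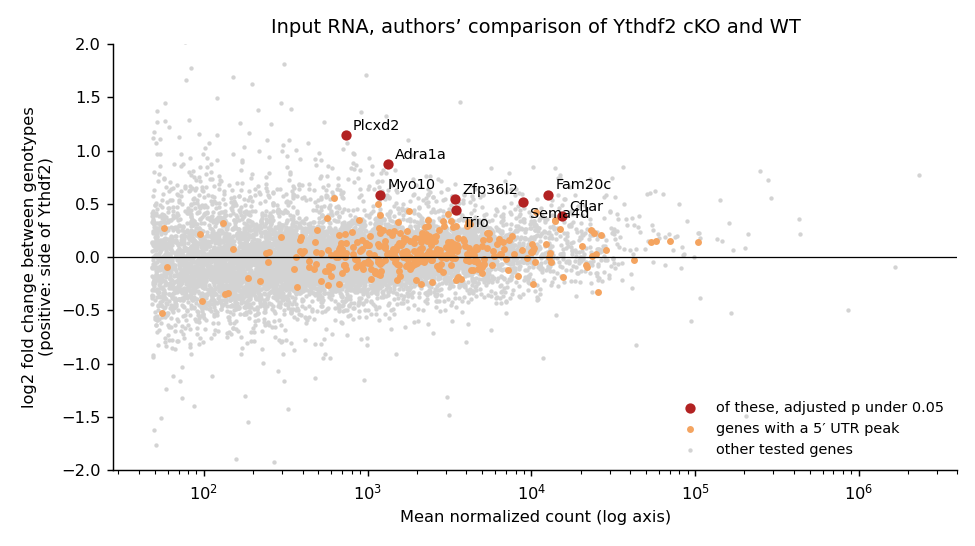
Log2 fold change between Ythdf2 cKO and WT input RNA (positive on the side of Ythdf2) against mean normalized count on a log axis, from the authors' deposited table. Dark red points are hosts of a 5′ UTR peak with an adjusted p under 0.05, orange points other hosts and grey points other tested genes, of which 17 lie beyond the axis. All 8 named hosts are positive, and most hosts lie to the right, at counts near 2018.

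As a check of the cell type, all 12 macrophage markers were among tested genes in the authors' deposited table, with mean normalized counts that summed to 449500. The authors' deposited table called 3 of these (adjusted p under 0.05), in both directions. In the authors' deposited table, Lyz2, a lysozyme, had -1.49 ± 0.33 (SE, adjusted p 0.0013) and Itgam, an integrin chain, -0.55 ± 0.11 (adjusted p 0.00014). Cd68, a lysosomal glycoprotein, was positive in the authors' deposited table with 0.40 ± 0.11 (adjusted p 0.022). Lists for other cell types summed to 9214 for neutrophils, 1490 for stroma, 251 for T and NK cells, 69.7 for B cells and 2.62 for erythroid cells in the authors' deposited table. Most of the neutrophil sum was Csf3r (8496), with S100a9 at 326 and S100a8 at 304, and nearly all of the T and NK sum was Cd4 (249), in the authors' deposited table. Elane and Ly6g of the neutrophil list, and Cd3d, Cd3e and Cd8a of the T and NK list, were each under 1 in the authors' deposited table. Of the stroma list, the authors' deposited table called Col1a1, with 0.56 ± 0.17 (adjusted p 0.049). The part of these markers and cells in the host comparison was not tested.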

How the data were processed

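Bone marrow-derived macrophages of Ythdf2 cKO and WT mice were profiled by m6A sequencing, and WT cells by YTHDF2 RNA immunoprecipitation, in 12 libraries. HISAT2, HOMER, ChIPseeker and mm10 are named in the submitters' processing notes without role. No caller of the YTHDF2 peaks is named there. The 3 deposited files used hold no values per library. The YTHDF2 list gives, as deposited by the authors in narrow-peak order, a score, a fold ratio at the summit, a −log10 q, and the transcript features of each peak. In the comparison of input libraries the authors deposited, per the file headers, a mean normalized count (a signal), a log2 fold change with its standard error, a Wald statistic (a score), a p-value and an adjusted p-value. The WT m6A list deposited by the authors gives coordinates alone.

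Of 45541 rows of the YTHDF2 list, 3234 repeats were dropped, and 222 of the peaks left had a summit in no listed feature. Summits in several features were classed as 3′ UTR, coding, 5′ UTR or intron, in that order. m6A peaks were placed on a chromosome through the RefSeq gene of the same symbol within 1000 bp (9285 of 10290). Symbols matched RefSeq for 337 of 338 hosts, 26 of them joined to the expression table through a synonym. Coordinates are 1-based (mm10). Peaks were described by counts, medians and Wilson intervals, with no test, in Python 3.11.15 with numpy 2.4.6, pandas 2.3.3 and scipy 1.17.1, checked on simulated peaks of known class. The call of a gene is the authors' (adjusted p under 0.05 from their Wald test).

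The genes named were the 10 strongest members, the called hosts, the 10 strongest members with m6A, the 5 genes with most 5′ UTR peaks, the 5 widest members and members of families with at least 3 such genes. Others are examples chosen after their values were seen. The members, gene families and marker lists were chosen with earlier results of these data known. Alternatives covered the class order, the thresholds, the overlap rule, the call rule and the sequence window. Of the 20 summits with sequence, 1 had no full 30-base window. Some results are not reported here.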

Additional observations from a re-analysis of the deposited data

How the results depend on the processing

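The share of peaks in 5′ UTRs was 2.02% and came to 2.02% to 2.20% with another class order, a −log10 q of 3 or more or feature starts counted from 1. It was 5.40% with any base of the peak in a 5′ UTR feature (963 peaks) and 1.36% in the upper 25% of the list by fold enrichment. The median fold enrichment was 2.81, and 2.67 among hosts in the upper 50% by mean count, an alternative chosen after seeing the data; its other values were 2.80 to 2.82. The m6A overlap of 21.9% became 8.99% with 50% of the YTHDF2 peak covered, 12.6% with the summit inside and 28.1% within 500 bp; each of these is a narrower or wider rule by construction. The 8 called hosts became 3 with at least 1.5-fold, and 0 of the 15 hosts with no peak of another class passed the authors' Wald test, with 1 at an unadjusted p under 0.05. The distance of 196.5 bases became 580 genomic bases, introns included, from the RefSeq gene start. No paired analysis was possible because the deposited lists hold no values per library, and for the same reason no replicate could be left out. The depth of the libraries is unknown, sequence was at hand for 20 summits near RefSeq starts only, and which genotype is on top of the fold change is unstated.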
